A study of Homo sapiens with 4 samples.

Results

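The genes described here are the enzymes of glycolysis, the transporters that move glucose in and lactate out, and a set of genes that cells turn on when oxygen is short. The module is a list of 32 genes chosen by name, with no threshold on their values but with earlier results of these data known, and 31 of them were found on the array through the accession of a probe. *ALDOA* was not analysed here, since no probe carried an accession of this gene. The array named 25006 genes in all by accession. The cells were HML58-3, a line derived from the colon cancer line HCT116 that carries a luciferase reporter under a methylated promoter, so that loss of DNA methylation turns on light. On day 1 they were given mock treatment or a drug, which was DAC (decitabine), OR-2003 or OR-2100 at 1 µM, and RNA was taken on day 5. DAC is a nucleoside that is built into DNA and traps DNA methyltransferases, and the OR compounds are prodrugs that release it. All 4 groups are the same line, and none is labelled with a change in oxygen or glucose. The drugs were dissolved in DMSO, and the study's text names the control both mock-treated and non-treated. Whether it held DMSO is not given in the sources used here, so that each difference from mock is one from a control whose solvent is not known. Each group was measured on 1 one-colour Agilent expression array, so that no difference has a replicate check, no test was possible, and the number of arrays limits the precision.

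Glycolysis splits glucose into pyruvate and yields ATP without oxygen. Many of its genes, with the glucose transporter *SLC2A1*, are targets of the hypoxia-inducible factors (HIF), whose alpha subunits are marked for destruction by the EGLN prolyl hydroxylases and the VHL protein while oxygen is present. Cancer cells such as those of the colon often run glycolysis at a high rate even in air. HIF binds a short DNA element whose core reads ACGTG or GCGTG, and binding to elements that hold a CpG can be hindered by DNA methylation.

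That core was looked for in promoter windows from RefSeq, which run from 250 bases before the start of a gene to 50 after it on build GRCh38.p14. A window was given for 28 of the 32 genes, and the first one listed was used where a gene had more. None was given for *SLC2A3*, *VEGFA*, *BNIP3L* and *NDRG1*. Of the module, *SLC2A3* and *VEGFA* differed most from mock, upward and downward. A core on either strand lay in 20 of these 28 windows, or 71.4%, beside 48.4% of all 27305 promoters of the same length and 60.4% of the 12336 that belong to genes well above background on all 4 arrays. Related lists held a core of either kind about as often, in 11 of 17 windows of the citric acid cycle and 6 of 7 of housekeeping genes. Holding a core of either kind is thus not particular to the module. ACGTG lay in 42.9% of the members' windows and 21.6% of all windows, and GCGTG in 46.4% and 36.3%. In genes well above background, the citric acid cycle and housekeeping genes, ACGTG lay in 25.6%, 17.6% and 14.3%. For GCGTG the same shares were 48.0%, 64.7% and 85.7%. ACGTG was thus more frequent in the members than in these sets. It also lay in 52.9% of windows of further hypoxia target genes, 44.4% of those of germline isoforms and 3 of 6 of gluconeogenesis. HIF regulators had it in 37.5% and isoforms of body tissues in 18.2%. A high share of ACGTG is thus not particular to the module. The palindrome CACGTG, which holds ACGTG on both strands and was counted as 2 cores, lay in 17.9% of the members' windows. It lay in 7.43% of all windows and 9.71% of those of genes well above background. Among the related lists its share ran from 0% in housekeeping genes to 25% in HIF regulators. Further hypoxia target genes had it in 17.6%, close to the members. These matches describe letters, not bound sites. The windows below are those of a pair of genes that were higher with the drugs, *SLC2A1* and *BNIP3*, and of a pair that were lower, *ALDOC* and *ADM*. They are shown to let the cores be seen in promoters of genes that differed both ways. Each of these genes has 1 window in the table. The sequences are printed 5′ to 3′ on the strand of the gene up to 30 bases after the start, and capitals mark the cores and their reverse complements, CACGT and CACGC.
SLC2A1, chr1:42958839-42959118, minus strand: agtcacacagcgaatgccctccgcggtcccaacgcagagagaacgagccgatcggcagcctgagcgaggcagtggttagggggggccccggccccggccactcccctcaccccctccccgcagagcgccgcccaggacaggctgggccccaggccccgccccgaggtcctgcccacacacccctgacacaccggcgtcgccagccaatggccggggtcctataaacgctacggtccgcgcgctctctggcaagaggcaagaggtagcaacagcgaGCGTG
BNIP3, chr10:131981894-131982173, minus strand: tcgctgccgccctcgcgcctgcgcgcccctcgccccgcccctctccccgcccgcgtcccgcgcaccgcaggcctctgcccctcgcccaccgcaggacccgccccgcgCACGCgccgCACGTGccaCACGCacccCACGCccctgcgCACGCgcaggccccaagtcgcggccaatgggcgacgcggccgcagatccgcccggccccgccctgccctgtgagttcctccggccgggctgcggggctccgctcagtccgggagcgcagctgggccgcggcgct
ALDOC, chr17:28576866-28577145, minus strand: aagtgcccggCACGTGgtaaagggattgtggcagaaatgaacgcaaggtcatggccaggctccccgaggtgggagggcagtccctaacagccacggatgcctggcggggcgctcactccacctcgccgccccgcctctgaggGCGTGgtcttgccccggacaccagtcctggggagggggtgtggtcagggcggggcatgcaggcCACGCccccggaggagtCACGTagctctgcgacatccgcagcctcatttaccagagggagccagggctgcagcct
ADM, chr11:10304823-10305102, plus strand: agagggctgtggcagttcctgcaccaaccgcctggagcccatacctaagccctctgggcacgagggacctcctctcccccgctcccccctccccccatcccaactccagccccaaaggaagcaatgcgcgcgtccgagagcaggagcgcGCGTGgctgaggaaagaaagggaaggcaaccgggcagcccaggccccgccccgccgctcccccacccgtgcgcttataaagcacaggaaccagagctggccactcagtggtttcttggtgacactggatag

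The window of *SLC2A1* held 1 core, 25 bases after the start. That of *BNIP3* held 6, of which 2 are the strands of 1 palindrome, and all began between positions -143 and -104 from the start. That of *ALDOC* held 5, with a palindrome near its far end, and that of *ADM* held 1, at position -101. The genes were picked for their directions, so that these windows cannot show whether the number of cores goes with a direction.

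Levels below are on a log2 scale of intensity on which 0 is the 75th percentile of an array's gene probes, and each gene is given by its probe with the highest mean level. A gene was counted as induced with a drug when its level with that drug was -1 or more and exceeded the mock level by 2-fold or more, and as reduced when its mock level was -1 or more and exceeded the level with the drug by 2-fold or more. Series of 4 values run mock, DAC, OR-2003 and OR-2100, and series of 3 values run DAC, OR-2003 and OR-2100. Of the probes, 300 had 10 spots, and from these the standard deviation (SD) of a difference between single spots was 0.0887 at levels above -1, 0.185 between -3 and -1, and 0.438 under -3. This noise holds no difference between cultures. The slope of the spike-in controls was 0.899, 0.921, 0.913 and 0.955 on the arrays, of which the software accepted all but the first, and its part in the differences was not tested. The 4 arrays lay on 1 slide, and no probe was saturated.

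The cells carried most of a list of epithelial markers. Probes for 5 of 6 such markers (*EPCAM*, *KRT8*, *KRT18*, *KRT19* and *CDH1*) were well above background on all arrays, and *VIL1* was well above background with the drugs but not with mock. *EPCAM* was at 6.81, 5.32, 5.29 and 5.36 and *CDH1* at 3.88, 2.79, 2.70 and 2.63, so that both were reduced with all 3 drugs. On a linear scale where the 75th percentile is 1, the epithelial list summed to 1300 on the mock array and from 1583 to 1680 with the drugs. Fibroblast markers summed to 2.21 and from 4.02 to 4.25 over 6 genes, with *COL3A1* and *LUM* not well above background on any array. *COL1A2* and *DCN* were well above background with each drug but not with mock, *DCN* at least 6.63, 7.26 and 6.6-fold higher against the lowest mock signal that was. The other probe of *DCN* was not well above background on any array, with differences of -0.13, -0.11 and -0.26. *COL1A1* differed by 0.83, 0.77 and 0.90. Leukocyte markers summed to 0.751 and from 1.12 to 1.19 over 4 genes, of which *CD14* was induced with all drugs. The part of these marker shifts in the differences below was not tested.

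All 31 members were well above background on all 4 arrays, and 28 had a level of -1 or more with mock. Members differed from mock in both directions. In the order of the drugs, 2, 2 and 2 members were induced, where 5.77%, 5.89% and 5.81% of all genes were, and 2, 3 and 5 members were reduced, where 5.96%, 6.05% and 6.82% of all genes were. The members induced with all 3 drugs were *SLC2A1* and *SLC2A3*, which both carry glucose into the cell, and those reduced with all 3 were *PFKM* and *VEGFA*. Among all genes, 5.27% were induced and 5.21% reduced with all 3 drugs, and among the 15977 genes well above background on all arrays, 5.76% were induced and 8.14% reduced, and 9.31%, 9.46% and 10.7% were reduced with the single drugs. The 2 of 31 members each way lie near those shares. The 5 reduced with OR-2100 were *PFKM*, *VEGFA*, *GPI*, *BNIP3L* and *ADM*, and their number was 1 with quantile normalization or scaling by bright probes and 3 with equal medians. In RNA from whole cultures, fewer cells of a type and less RNA per cell cannot be told apart.

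**Figure D1:**
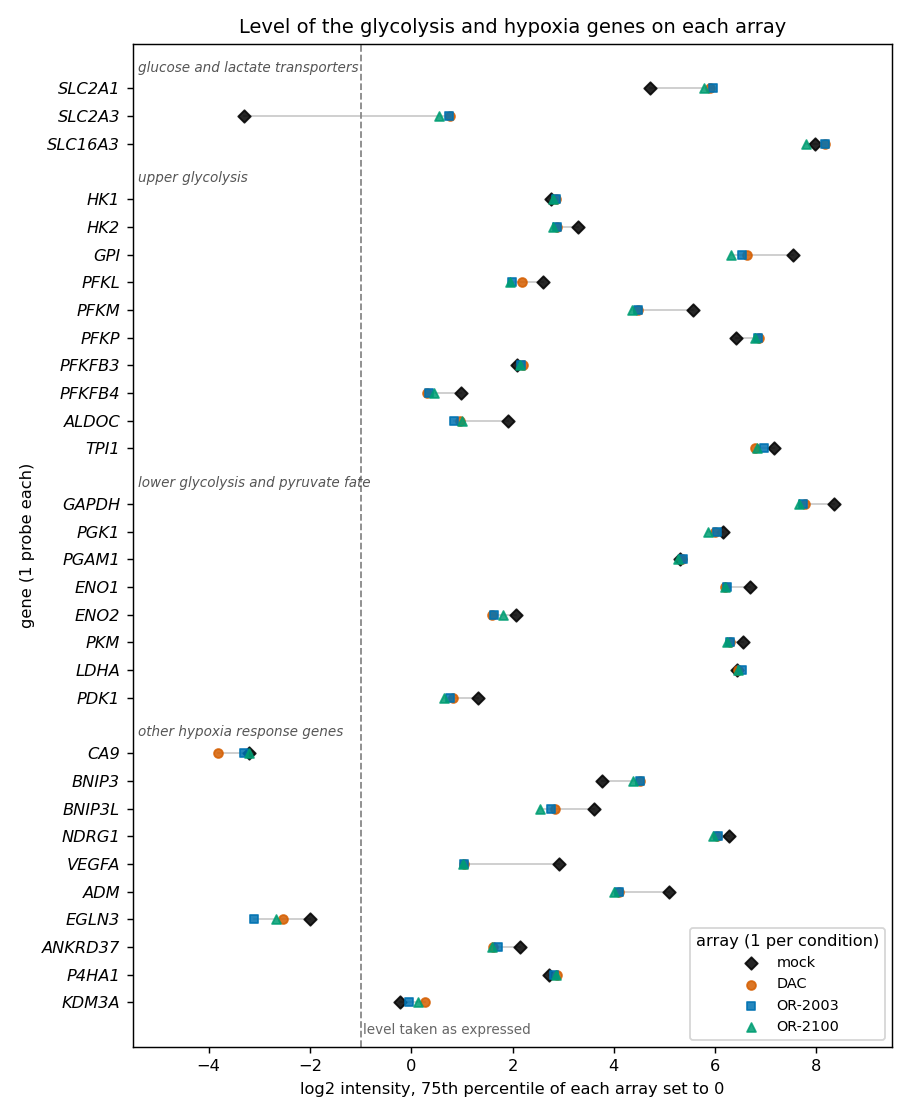
Level of the 31 genes on each array, on a log2 scale with the 75th percentile of each array at 0, by role. Each symbol is 1 array and the grey line joins the lowest and the highest. *SLC2A3* stands apart, at -3.30 with mock and between 0.55 and 0.77 with the drugs, while most genes differ little between arrays and the 3 drug symbols lie close together.

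The median log2 difference of the members was -0.41, -0.24 and -0.32. The same over genes well above background was -0.18, -0.17 and -0.21, so that genes in general lay somewhat below mock under this scaling. Across other scalings this median of genes well above background lay between -0.39 and 0.03, so that differences of this size have no fixed sign. Against that median, 18 members were lower with all 3 drugs and 11 were higher, where 6987 and 7000 of the 15977 genes were. Lower than mock with all 3 drugs were 19 of the 31 members, or 61.3%, beside 56.4% of those genes. Higher with all 3 were 9 members, where 5176 of the 15977 genes were. Among 15 alternatives of processing, the series table, those that changed only a threshold and dim probes left out could not alter a member's difference. Over all 15 alternatives, 18 members kept their sign with every drug, 14 of them lower and 4 higher. The sign of the other 13 (*HK1*, *HK2*, *PFKFB3*, *TPI1*, *PGK1*, *PGAM1*, *PKM*, *LDHA*, *SLC16A3*, *NDRG1*, *P4HA1*, *KDM3A* and *CA9*) turned with a drug in 1 or more alternatives. For 13 of the 31 members the log2 difference was within 0.5 with all drugs, as it was for 7086 of the 15977 genes, a similar share.

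**Figure D2:**
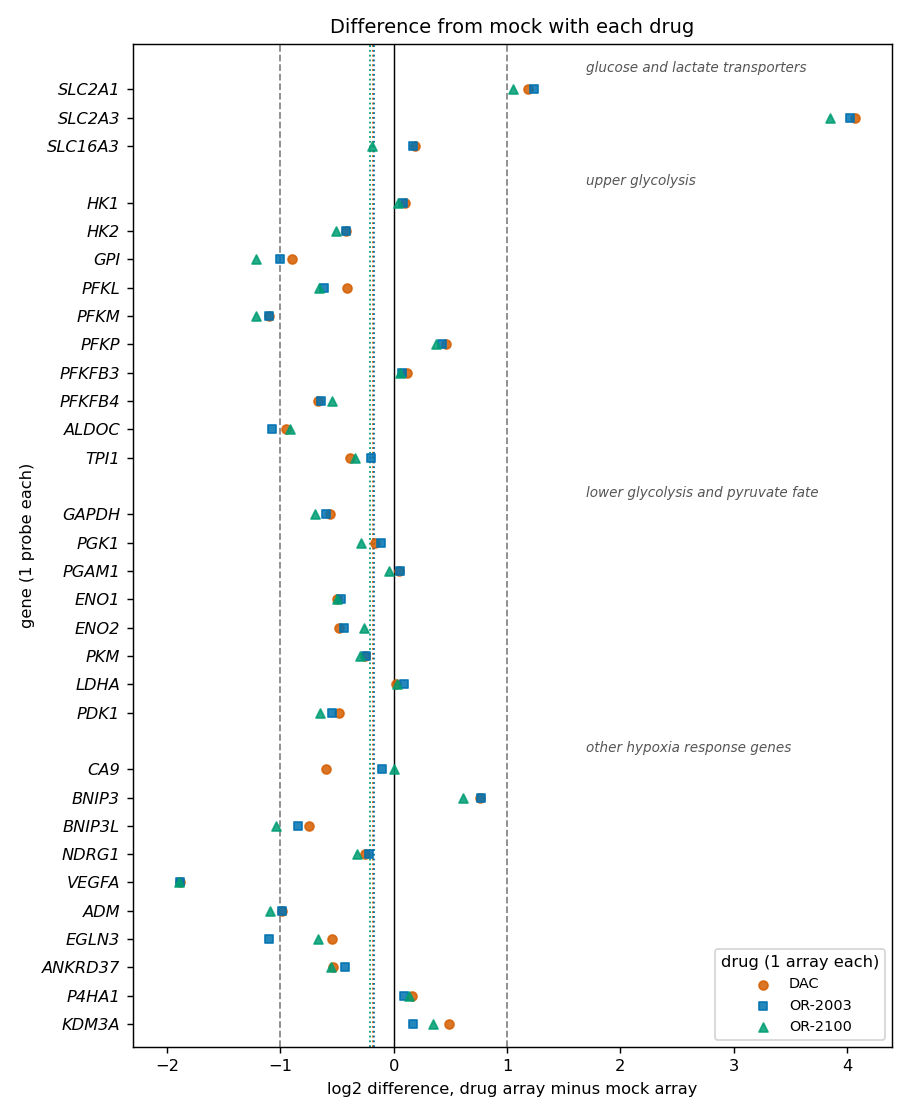
Log2 difference from the mock array with each drug for the 31 genes, by role. Each symbol is 1 array against the 1 mock array, dashed lines mark 2-fold, and dotted lines mark the median of genes well above background (-0.18, -0.17 and -0.21). Glucose transporters lie to the right and *VEGFA*, at -1.88, -1.88 and -1.89, lies farthest to the left.

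The glucose transporters were the members that were more than 2-fold higher. *SLC2A1*, the main glucose carrier of dividing cells, was at 4.71 with mock and at 5.90, 5.95 and 5.77 with the drugs. It was thus 2.28, 2.36 and 2.08-fold higher, and its log2 difference stayed between 0.97 and 1.44 over all alternatives. With scaling by the median of all gene probes it fell short of 2-fold with OR-2100. *SLC2A3*, a carrier with high affinity for glucose known from neurons, was at -3.30, 0.77, 0.74 and 0.55. It was under the level taken as expressed on the mock array and over it on each drug array, which made it 16.8, 16.4 and 14.4-fold higher. Of the 15977 genes well above background, 118 had a higher mean difference.

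The size for *SLC2A3* is less sure than its direction. Its other probe was at -3.97, -1.52, -1.38 and -1.44, with log2 differences of 2.44, 2.59 and 2.52, and stayed under the level taken as expressed. With normexp background correction the differences of the chosen probe were 1.95, 1.95 and 1.79. With the 75th percentile of bright probes the gene was no longer counted as induced, because its level fell under the threshold. That scaling did not make its difference smaller. *SLC2A14*, a near-identical copy of *SLC2A3* known from the testis, was at 0.53, 3.99, 4.07 and 3.86, or 10.9, 11.6 and 10.0-fold higher, and probes of either gene may hold signal of the other. The lactate exporter *SLC16A3* was at 7.98, 8.17, 8.16 and 7.79, with differences of 0.19, 0.17 and -0.19 that had no common sign.

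In upper glycolysis 1 of 10 genes, *PFKM*, was reduced with all 3 drugs and none was induced. Lower than mock with all drugs were 7 of the 10, beside 56.4% of genes well above background, and the signs of *HK2* and *TPI1* among these 7 turned in 1 or more alternatives. The list median was -0.42, -0.51 and -0.53. *PFKM*, the phosphofructokinase subunit of muscle, was at 5.57, 4.47, 4.48 and 4.36 and was 2.15, 2.14 and 2.32-fold lower. All drug arrays lay more than 1 below mock here, but with quantile normalization the differences were -0.93, -0.93 and -0.98, and scaling by the bright probes gave -0.91, -0.89 and -0.99. *GPI*, which turns glucose phosphate into fructose phosphate, was at 7.53, 6.63, 6.53 and 6.32. It was 1.87, 2.0 and 2.31-fold lower, and passed the threshold with OR-2100 only, since its difference with OR-2003 lay just inside 2-fold. *ALDOC*, the aldolase of brain, was at 1.91, 0.96, 0.84 and 1.00, which is 1.93, 2.10 and 1.87-fold lower and past the threshold with OR-2003 only.

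The other upper genes differed less. *PFKFB4*, which sets the level of an activator of phosphofructokinase, differed by -0.67, -0.64 and -0.54, and the liver-type subunit *PFKL* by -0.41, -0.61 and -0.66. *HK2*, the hexokinase of many tumors, differed by -0.42, -0.42 and -0.51, and *TPI1*, which interconverts the triose phosphates, by -0.38, -0.20 and -0.34. Against these, the platelet-type subunit *PFKP* was higher, at 6.41, 6.87, 6.85 and 6.79, with differences of 0.46, 0.43 and 0.37 and of 0.48, 0.33 and 0.35 on its other probe. The 3 subunits of phosphofructokinase thus did not go together, with *PFKM* and *PFKL* lower and *PFKP* higher under every alternative run. *HK1*, the hexokinase of most tissues, differed by 0.10, 0.08 and 0.04 and *PFKFB3*, a relative of *PFKFB4*, by 0.12, 0.07 and 0.06, and neither sign held in every alternative. The other probe of *PFKFB3*, dimmer at -2.62 with mock, differed by 0.57, 0.44 and 0.36.

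In lower glycolysis no gene was induced or reduced. The list median over 8 genes was -0.36, -0.34 and -0.30, and 6 of them were lower with all drugs. *GAPDH*, which oxidizes triose phosphate, has 10 spots, and its mean level was 8.34 ± 0.0561 (SD between spots, n = 9 unmarked spots), 7.77 ± 0.0630 (n = 10), 7.73 ± 0.0525 (n = 10) and 7.65 ± 0.0538 (n = 10). No spot of the mock array fell within the range of the drug arrays, and the differences were -0.56, -0.60 and -0.69, a gap larger than the noise between spots, while the spread between cultures was not measured. Among the 381 genes with a mock level over 7, the median difference was -0.41, -0.36 and -0.51, and *GAPDH*, *GPI*, *TPI1* and *SLC16A3* are among these genes.

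*PGK1*, the first step that yields ATP, also has 10 spots and was at 6.15 ± 0.0624, 5.99 ± 0.0753, 6.03 ± 0.0691 and 5.85 ± 0.0705 (SD between spots, n = 10). Its spots on the mock array overlapped those with DAC and OR-2003 but not those with OR-2100, with differences of -0.16, -0.11 and -0.29. *ENO1*, the common enolase, was at 6.69, 6.19, 6.23 and 6.19, and *ENO2*, the enolase of neurons, at 2.07, 1.59, 1.63 and 1.81, so that both were lower with each drug. *PKM*, the pyruvate kinase of most tissues, differed by -0.25, -0.24 and -0.30, close to the median of genes well above background. *LDHA*, which makes lactate, differed by 0.02, 0.09 and 0.03 and the mutase *PGAM1* by 0.05, 0.06 and -0.04, both close to the noise of a spot at this level. The other probe of *PGAM1* differed by 0.35, 0.38 and 0.20, more than that noise, so that its size depends on the probe. *PDK1*, a kinase of pyruvate dehydrogenase, was lower, at 1.31, 0.82, 0.76 and 0.65.

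The other genes of the hypoxia response went both ways, with a median of -0.54, -0.33 and -0.44 over 10 genes. *VEGFA*, the growth factor for blood vessels, was at 2.91, 1.03, 1.03 and 1.02 and thus 3.69, 3.68 and 3.71-fold lower. The 3 drug arrays gave nearly the same level, and of the 15977 genes well above background, 243 had a lower mean difference. Its other probe differed by -1.45, -1.41 and -1.37, and over all alternatives the differences lay between -2.10 and -1.61. It was the only member past 2-fold lower with all drugs in each alternative other than the 4-fold threshold, under which no member was reduced.

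*ADM*, which encodes the vessel-widening peptide adrenomedullin, has 10 spots and was at 5.09 ± 0.0689, 4.11 ± 0.0608, 4.10 ± 0.0919 and 4.0 ± 0.0837 (SD between spots, n = 10). No spot overlapped between mock and the drugs, and the gene was 1.97, 1.98 and 2.13-fold lower, past the threshold with OR-2100 only. *BNIP3* and *BNIP3L*, related genes for clearing mitochondria, went in opposite directions. *BNIP3* was at 3.76, 4.52, 4.52 and 4.37, or 1.69, 1.7 and 1.53-fold higher, and *BNIP3L* at 3.60, 2.84, 2.76 and 2.55, or 1.69, 1.79 and 2.06-fold lower. The other probe of *BNIP3L* differed by -0.28, -0.22 and -0.37, the same sign with a smaller size.

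None of the remaining hypoxia genes was counted as induced or reduced, though *EGLN3* passed 2-fold with OR-2003 at a level too low to count. *ANKRD37*, a HIF target of unclear role, was at 2.14, 1.61, 1.71 and 1.59. The demethylase gene *KDM3A* was at -0.22, 0.27, -0.05 and 0.13, and *P4HA1*, a collagen prolyl hydroxylase, differed by 0.16, 0.09 and 0.14. *NDRG1*, a stress gene, differed by -0.25, -0.22 and -0.32, close to the median of genes well above background. *CA9* and *EGLN3*, often read as markers of HIF activity, were dim on every array. *CA9*, a carbonic anhydrase, was at -3.21, -3.81, -3.31 and -3.20, and its differences of -0.60, -0.10 and 0.00 lie within 2 SD of a difference between spots at this level. *EGLN3*, a HIF hydroxylase, was at -2.0, -2.54, -3.10 and -2.67, or 1.45, 2.14 and 1.59-fold lower, with a mock level under the -1 needed to be counted as reduced.

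Of the 8 members with more than 1 probe, 7 had another probe well above background on all arrays. The mean difference of these 7 probes had the same sign as that of the chosen probe, and 5 lay within 0.5 of it. The other probe of *HK2* was not well above background on any array and differed by 0.48, -0.09 and -0.24.

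The genes around the module were read from lists of HIF regulators, further HIF targets, other isoforms and neighboring pathways. Among 10 HIF subunits and regulators, the median mean difference was -0.07. With all drugs, 1 gene was induced and 1 reduced, where 5.76% and 8.14% of genes well above background were. *EGLN1*, the main oxygen sensor among the hydroxylases, was at 2.22, 3.39, 3.40 and 3.35, or 2.25, 2.28 and 2.19-fold higher. *EPAS1*, a HIF alpha subunit, was at 3.85, 2.55, 2.67 and 2.14, or 2.48, 2.27 and 3.28-fold lower. The transcript of the hydroxylase was thus higher and that of a subunit it acts on lower with each drug. *EGLN2*, another hydroxylase, differed by 0.90, 1.05 and 0.87 and *ARNT2*, a partner of the alpha subunits, by -0.44, -0.64 and -0.66. *HIF1A*, named after its values were seen, differed by -0.04, -0.03 and -0.17.

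Of 20 further HIF targets, 3 were reduced and 0 induced with all drugs, where 8.14% and 5.76% of genes well above background were. The median mean difference of the 20 was -0.10. *STC2*, a secreted glycoprotein, was at 1.6, -1.43, -1.29 and -1.76, or 8.17, 7.40 and 10.2-fold lower. *ZNF395*, a zinc finger protein, differed by -1.27, -1.22 and -1.29 and *MXI1*, a MYC antagonist, by -1.11, -1.15 and -1.10. *PGM1*, which links glycogen to glycolysis, was lower by -1.01, -0.93 and -1.02, while *RIMKLA*, a peptide ligase, was higher by 1.11, 1.17 and 0.97. The probes of *INSIG2* went opposite ways, at 0.25, 0.30 and 0.06 and at -0.99, -1.07 and -1.12. Of the 20, 10 were lower than mock with all drugs and 7 higher, where 9011 and 5176 of 15977 genes well above background were. HIF targets outside the module thus differed in both directions, as genes in general did.

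Of 15 other glycolytic isoforms of body tissues, 2 were reduced with all drugs, beside 5.21% of all genes. *PDK2* differed by -1.24, -1.09 and -1.42 and *PDK3* by -2.0, -2.05 and -2.26, both kinases of pyruvate dehydrogenase like *PDK1*. The other probe of *PDK3* differed by 0.06, 0.00 and -0.16 and that of *PDK2* by -0.26, -0.37 and -0.22, so that the sizes depend on the probe. *SLC2A4*, the insulin-dependent glucose carrier, differed by 1.21, 1.27 and 1.15 but stayed dim, from -4.06 with mock to between -2.91 and -2.79. *PGAM2*, the mutase of muscle, differed by 0.95, 0.86 and 0.97.

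Of 9 isoforms known from germ cells, *SLC2A14*, given above, was induced with all drugs and none was reduced. Among all genes, 5.27% were induced and 5.21% reduced with all drugs. *LDHC*, the lactate dehydrogenase of the testis, differed by -0.49, -0.32 and -0.45, and *PGAM4*, a near-identical copy of *PGAM1* whose signal may be shared, by -0.13, -0.10 and -0.34. *PDHA2*, a testis subunit of pyruvate dehydrogenase named after its values were seen, was not well above background with mock and was at -1.10, -1.17 and -1.29 with the drugs. It was at least 9.09, 8.68 and 7.95-fold higher, taken against the lowest mock signal that was well above background. Of the 9 genes, 4 were well above background on all arrays, while *GAPDHS* and *PGK2*, the germ cell forms of enzymes of lower glycolysis, were on none.

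Gluconeogenesis runs glycolysis backward by way of a few enzymes of its own. Of 7 such genes, 1 was induced and 1 reduced with all drugs, where 5.27% and 5.21% of all genes were. *FBP2*, the fructose bisphosphatase of muscle, was not well above background with mock and was at 2.16, 2.22 and 2.24 with the drugs, at least 86.9, 91.2 and 92.0-fold higher by the same bound. *FBP1*, the form of liver, named after its values were seen, was at least 4.53, 3.31 and 2.96-fold higher, and stayed under the level taken as expressed. *PCK2*, which makes phosphoenolpyruvate in mitochondria, was at 3.13, -0.29, -0.29 and -0.16, or 10.7, 10.8 and 9.81-fold lower, and its other probe differed by -2.19, -1.82 and -2.63. *PC*, pyruvate carboxylase, differed by -0.83, -0.76 and -0.96 and *G6PC3*, a glucose phosphatase of many tissues, by -0.39, -0.38 and -0.57. Enzymes that oppose glycolysis thus went both ways, as genes in general did.

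Of 20 genes of the citric acid cycle and of pyruvate dehydrogenase, 1 was reduced with all drugs and none induced. Among genes well above background, 8.14% were reduced and 5.76% induced with all drugs. The reduced gene, *SUCLG2*, was not counted with normexp or with averaged probes. Lower than mock with all drugs were 18 of the 20, beside 56.4% of genes well above background, with a median of -0.28, -0.34 and -0.38 beside -0.18, -0.17 and -0.21. Under that median with all drugs were 11 of the 20, beside 43.7% of those genes. *SUCLG2*, a subunit of succinyl-CoA ligase, differed by -1.18, -1.40 and -1.41, the dehydrogenase subunits *DLD* by -1.2, -1.14 and -0.84 and *IDH3A* by -0.86, -0.94 and -1.03. Of 9 housekeeping genes none was induced or reduced, with a median of -0.17, -0.16 and -0.24, and the ribosomal gene *RPLP0*, at -0.81, -0.76 and -0.97, and the adaptor gene *YWHAZ*, at -0.55, -0.67 and -0.62, differed most. The shift of *GAPDH* thus lay within the range of genes that are taken as stable.

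Compared pair by pair, with no use of mock, the drugs gave nearly the same levels for the module, as they did for most genes well above background. The drugs were used at 1 dose and 1 time, and 3 pairs were compared. No member was 2-fold apart in any pair, where 0.0563%, 0.113% and 0.269% of genes well above background were for DAC with OR-2003, DAC with OR-2100 and OR-2003 with OR-2100. In the same order, 28, 27 and 29 of the 31 members lay within 0.25 of each other. Of the 15977 genes well above background, 14376, 13563 and 13466 did, so that this closeness is not particular to the module. The median of OR-2003 minus DAC was 0.003, and OR-2100 lay slightly lower, with a median of -0.090 against DAC and -0.087 against OR-2003, where genes well above background had -0.044 and -0.045. With 1 array each, no interval of a difference between cultures can be given.

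**Figure D3:**
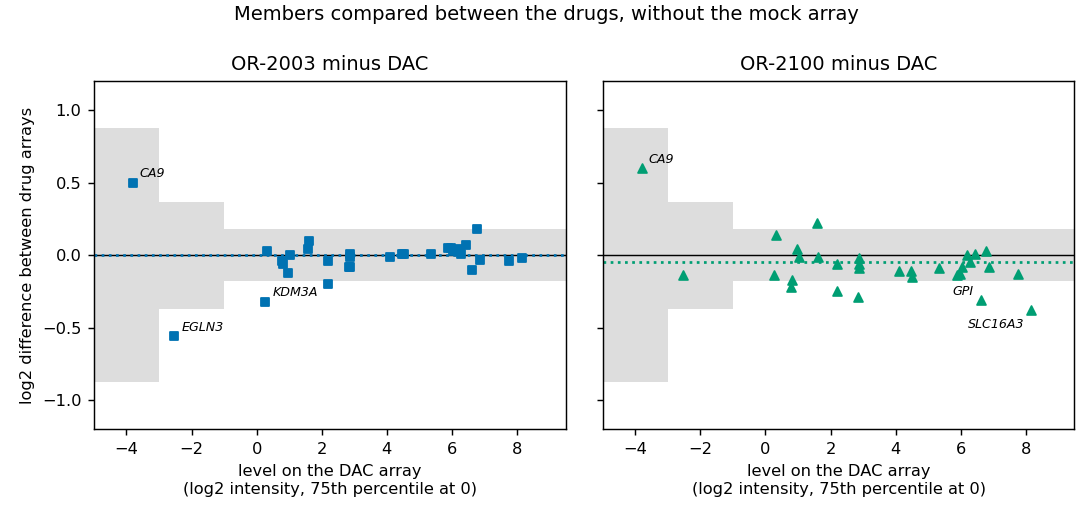
Log2 difference between drug arrays for the 31 genes, OR-2003 minus DAC on the left and OR-2100 minus DAC on the right, against the level on the DAC array. Grey marks 2 SD of a difference between single spots, and the dotted line is the median of genes well above background. Most symbols lie within the grey area, and *EGLN3* and *CA9*, which are farthest from 0, are dim.

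The members farthest apart were dim or differed by little. *CA9* was 0.60 higher with OR-2100 than with DAC, and *EGLN3* differed by -0.56 between OR-2003 and DAC, both at levels under -2. Among brighter genes, *SLC16A3* was lower with OR-2100 than with DAC, by -0.38, and *GPI* by -0.31, and *KDM3A* was lower with OR-2003 than with DAC, by -0.32. These differences exceed 2 SD between spots, but no replicate shows what cultures under the same drug would differ by.

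CpG, the dinucleotide that DNA methyltransferases mark, was counted in the same windows. The median window of the module held 28.5 and the range was 1 to 48. The median was 14 over all promoters but 25 over those of genes well above background, 27 in the citric acid cycle and 28 in housekeeping genes, so that the count is not particular to the module. Of the 27 members with a window and a probe, the 14 with 29 or more CpG had a median mean difference of -0.22 and ranged from -0.56 to 1.16, and the 13 with fewer had -0.62 and ranged from -1.14 to 0.33. Lower on the mean were 8 of the 14 and 9 of the 13, so that the sets overlapped. *BNIP3*, higher with each drug, had 48 and *GPI*, lower with each, had 13, whereas *PFKL*, lower with each, had 40 and *HK1*, at 0.10, 0.08 and 0.04, had 1. The 19 members with a core had a median of -0.39 and ranged from -1.04 to 1.16, and the 8 without one had -0.14 and ranged from -1.14 to 0.42. Members with and without a core thus overlapped over most of their range. *SLC2A3*, *VEGFA*, *BNIP3L* and *NDRG1*, which had no window, are in none of these sets. Windows of genes with several starts, such as *PFKM* and *HK1* with 7 each, may not be the ones in use, and methylation was not analysed here.

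**Figure D4:**
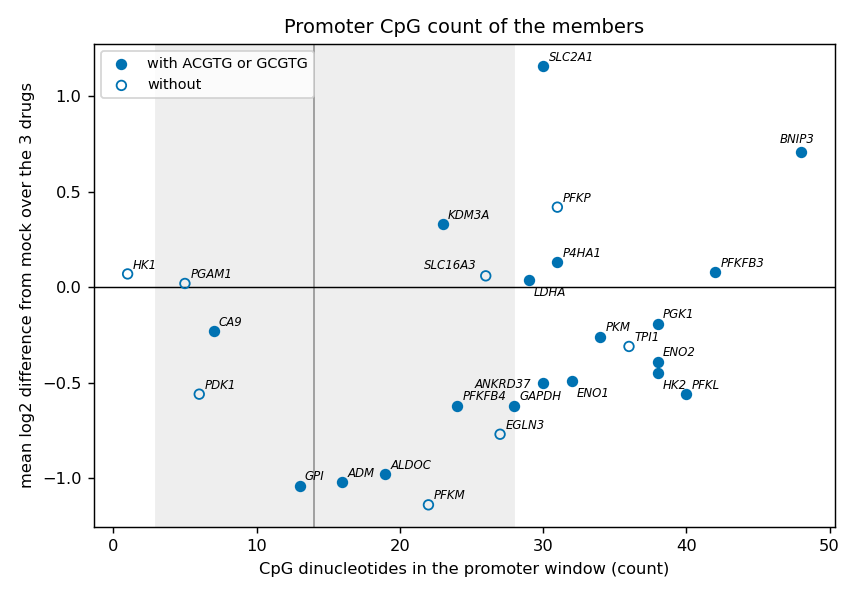
Mean log2 difference from mock over the 3 drugs against the CpG count in the promoter window, for the 27 genes with both. Filled symbols hold ACGTG or GCGTG on either strand, the grey line is the median of all promoters (14) and the band their middle 50%. Both kinds of symbol lie above and below 0. *SLC2A3* and *VEGFA*, which differed most from mock, had no window and are not shown.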

How the data were processed

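The authors hybridized RNA of each culture to an Agilent SurePrint G3 Human GE 8x60K v3 array, and the deposited intensity values were background-corrected spot by spot with Feature Extraction 12.1.0.3, per the file headers, and not normalized between arrays. The deposited series table holds the same intensity values. From these, log2 of the deposited intensity was averaged over the unmarked spots of a probe, and the 75th percentile over gene probes was subtracted on each array. Marked spots, 52 to 98 an array, were left out. A probe was well above background when over 0.5 of its unmarked spots were flagged so. Of 58201 gene probes, 34892 were named through RefSeq accessions, for 25006 genes. Probes well above background numbered 31601 to 33282 an array. No test was run, since each condition has 1 array.

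The members and lists were chosen with earlier results of these data known. All members are named, and of each other list the genes induced or reduced with all drugs and the other 2 with the largest mean difference among genes well above background. From these lists, 2 genes were left out and are not reported here. Other probes of members and of named list genes are given where they differ in sign or by more than 1, while those of marker genes are not all given. Counting was checked on simulated data, with genes of a level over 1 changed 4-fold and noise between spots only. That check could not cover genes that differ by close to 2-fold or the spread between cultures. The alternatives were normexp with an offset of 50, run on the deposited median intensity, quantile normalization, scaling by bright probes or by medians, dim probes left out, marked spots kept, the median of spots, averages over the probes of a gene, thresholds of 1.5 and 4-fold and no level threshold, and cyclic loess, added after seeing the data. Python 3.11.15, numpy 2.4.6, pandas 2.3.3, R 4.3.3 and limma 3.58.1 were used.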

Additional observations from a re-analysis of the deposited data

How the results depend on the processing

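With 1 array a condition, replicates could not be left out in turn. No paired analysis was possible because there was 1 array of each drug and of mock. The series table held the same values and changed nothing. A count is given below where it moved by more than 1.5 times and a median where it moved by more than 0.0887, the SD of a difference between spots, and causes were not tested unless stated. All other values of this kind, 246 in number, stayed within these limits, and no direction of a gene past 2-fold turned. Some of these values could not move, such as medians under another threshold. Cyclic loess was chosen after seeing the data. Dim probes limit *CA9*, *EGLN3* and the size for *SLC2A3*.

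Series of 3 run DAC, OR-2003 and OR-2100. With normexp, the median of the members with DAC was -0.29, and the largest differences between drugs fell to 0.26, 0.37 and 0.32 for DAC and OR-2003, DAC and OR-2100, and OR-2003 and OR-2100. The isoforms of body tissues had 1 gene reduced with all drugs and a median of -0.15, the germline isoforms had 2 induced, the gluconeogenesis median was -0.19, and 0 citric acid cycle genes were reduced.

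With quantile normalization, 1, 1 and 1 members were reduced and 1 with all drugs (*VEGFA*), with medians of -0.13 for DAC and -0.094 for OR-2100. With arrays scaled by the 75th percentile of bright probes, 1, 1 and 1 members were induced and 1 with all drugs (*SLC2A1*), since *SLC2A3* fell under the level threshold, and 1, 1 and 1 were reduced and 1 with all drugs (*VEGFA*), with medians of -0.21, -0.035 and -0.10. Among all genes past the thresholds, the induced made up 59.4%, 59.2% and 57.3% with this scaling and 49.2%, 49.3% and 46.0% with the main one. With the median of all gene probes, 5 members were reduced with DAC, 7 with OR-2003 and 4 with all drugs, 1 was induced with OR-2100 and with all drugs (*SLC2A3*), and the medians were -0.53 for DAC and -0.46 for OR-2003.

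With equal medians of probes well above background, 3 members were reduced with OR-2100 and the medians were -0.31, -0.14 and -0.22. The HIF regulators had a median of 0.03, the further targets of 4.1e-05 with 1 induced, the isoforms of body tissues of -0.29 with 1 reduced, the germline isoforms of -0.076, gluconeogenesis of -0.30, the citric acid cycle of -0.22 and the housekeeping genes of -0.092. With probes of 1 gene averaged, the further targets had a median of -0.25, and 0 isoforms of body tissues and 0 citric acid cycle genes were reduced.

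A 1.5-fold threshold gave 7, 9 and 9 reduced members and 6 with all drugs. A 4-fold threshold gave 1, 1 and 1 induced and 1 with all drugs (*SLC2A3*), and 0, 0 and 0 reduced and 0 with all drugs. Cyclic loess gave a median of the members of -0.21 with OR-2100 and of the housekeeping genes of -0.095.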
